A study of Mus musculus with 32 samples.

Results

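Oxidative phosphorylation genes were followed in MC38, a mouse line labelled as a colon adenocarcinoma line, and in a derivative of it named for its resistance to anti-PD-1. That antibody blocks a checkpoint receptor of T cells. The members were every gene in the deposited table whose symbol begins with Nduf and a, b, c, s or v, with Uqcr, with Cox5, Cox6, Cox7 or Cox8 or with Atp5, together with Sdha, Sdhb, Sdhc and Sdhd and the protein-coding genes of mitochondrial DNA, without pseudogene symbols. The rule found 104 of 22329 genes. Of these, 91 are encoded in the nucleus and 13 in mitochondrial DNA. The groups were 12 MC38-resistant subcutaneous tumors, 13 MC38 parental subcutaneous tumors, 5 MC38-resistant cultures and 2 MC38 parental cultures. All 4 groups are labelled untreated, so no sample was exposed to anti-PD-1 in this experiment per the labels. The animals' age is not given in the sources used here. Tumors grew under the skin of C57BL6/J mice with an intact immune system, so a tumor library holds RNA of host cells as well as of the injected line. The labels name neither a clone number for the resistant line nor separate cultures, so p-values for culture reflect how far these libraries differ, and part of that may be technical. Tumor and culture libraries carry different series of names, and the setting and that series cannot be told apart. Among the tumors, the running numbers in the names of parental and resistant libraries fall in separate blocks. What these numbers stand for is not given in the sources used here, and line and block cannot be told apart either.

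Oxidative phosphorylation moves electrons from NADH and succinate through complexes I to IV of the inner mitochondrial membrane to oxygen, and ATP synthase uses the proton gradient this builds. Every complex except complex II joins subunits made in the cytosol from nuclear genes with subunits made inside the mitochondrion from its own DNA, so each of those draws on both genomes. Many nuclear members are read by the transcription factors NRF1, GABP (an ETS factor) and YY1, while mitochondrial DNA is copied into long transcripts from both strands that are then cleaved into single messages. Some subunits also exist as isoforms of muscle, testis or low oxygen.

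Start regions are given first for 4 members called between resistant and parental tumors. They are the 3 falls and 1 rise of lowest adjusted p among members with 1 start region that could be picked. The larger rise of Ndufa4l2 fell outside that rule. Cox6a1 and Ndufv3 were lower in resistant tumors with no overlap between the groups, Atp5g1 had the largest fall, and Ndufaf4 was a nuclear member that rose. Each run holds 300 bases of RefSeq sequence, from 250 bases before to 50 bases after the gene's start, on build GRCm38.p6, which need not be the build the authors used. Capitals mark matches on either strand to GCGCANGCG (NRF1), CCGGAAG (ETS factors) or AAGATGGCG (YY1). Matches that overlap, on 1 strand or both, run together as 1 stretch.
Cox6a1 (chr5:115348909-115349208, minus strand): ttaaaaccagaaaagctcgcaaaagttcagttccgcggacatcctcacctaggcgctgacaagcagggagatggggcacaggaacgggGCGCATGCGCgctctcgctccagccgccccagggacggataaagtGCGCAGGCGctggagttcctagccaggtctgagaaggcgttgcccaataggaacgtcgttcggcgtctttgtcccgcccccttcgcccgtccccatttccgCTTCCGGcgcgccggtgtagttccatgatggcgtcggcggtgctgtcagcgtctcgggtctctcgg
Ndufv3 (chr17:31519865-31520164, plus strand): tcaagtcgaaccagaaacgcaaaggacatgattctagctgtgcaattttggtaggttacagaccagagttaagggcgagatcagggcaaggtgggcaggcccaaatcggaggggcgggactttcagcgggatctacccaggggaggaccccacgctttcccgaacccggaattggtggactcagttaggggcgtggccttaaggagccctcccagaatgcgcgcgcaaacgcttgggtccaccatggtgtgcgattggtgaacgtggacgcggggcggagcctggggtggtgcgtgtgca
Atp5g1 (chr11:96075582-96075881, minus strand): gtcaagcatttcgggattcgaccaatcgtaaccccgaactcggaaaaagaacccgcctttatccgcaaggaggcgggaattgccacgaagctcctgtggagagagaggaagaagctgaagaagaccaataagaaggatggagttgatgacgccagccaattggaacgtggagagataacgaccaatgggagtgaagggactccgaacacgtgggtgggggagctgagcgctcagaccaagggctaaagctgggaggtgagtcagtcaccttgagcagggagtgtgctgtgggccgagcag
Ndufaf4 (chr4:24897833-24898132, plus strand): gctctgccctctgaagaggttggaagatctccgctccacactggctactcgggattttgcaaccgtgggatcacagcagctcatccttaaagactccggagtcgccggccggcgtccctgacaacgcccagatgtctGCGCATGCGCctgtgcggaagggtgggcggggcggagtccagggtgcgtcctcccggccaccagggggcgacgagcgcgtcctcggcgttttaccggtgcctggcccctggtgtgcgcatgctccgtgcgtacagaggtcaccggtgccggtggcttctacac
The region of Cox6a1 held 2 stretches matching NRF1 and 1 matching the ETS letters, and that of Ndufaf4 held 1 matching NRF1. Neither the region of Ndufv3 nor that of Atp5g1 held any of the 3 motifs.

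A RefSeq start region was found for 74 of the 91 nuclear members. A gene with several start regions was counted if any of them held the letters. The NRF1 letters stood in 22 of the 74 (29.7%), against 7.03% of all 27025 genes with a start region of that length. The ETS letters were found for 24.3% of the members and 9.93% of all genes, and the YY1 letters for 10.8% and 1.64%. A plain GC box, GGGCGG, was found for 44.6% of the members and 38.2% of all genes. These matches describe the letters in this window only.

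Values are TPM, a gene's length-scaled share of its library, so levels can be compared between genes. Depth per library is unknown. Genes at 1 TPM or more numbered 11573 to 12809 in resistant tumors, 11963 to 13308 in parental tumors, 10470 to 10799 in resistant cultures and 10654 to 10978 in parental cultures. The labelled epithelial origin was hardly visible: the 7 colon epithelial markers Epcam, Cdh1, Krt8, Krt18, Krt20, Vil1 and Cdx2 summed to medians of 2.55 TPM in resistant tumors, 3.76 TPM in parental tumors, 0.111 TPM in resistant cultures and 3.24 TPM in parental cultures. Macrophage markers (8 genes) summed to 215 to 430.0 TPM in resistant tumors and 204 to 940.5 TPM in parental tumors, against at most 2.51 TPM in any culture. Skeletal muscle markers (10 genes) summed to 5.14 to 234 TPM in resistant tumors and 10.8 to 73.1 TPM in parental tumors, against at most 9.14 TPM in any culture. In RNA of whole tumors, fewer cells of a type and less RNA per cell cannot be told apart.

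The summed shares of nuclear and mitochondrially encoded members differed between the lines in opposite directions. The 91 nuclear members together held 1.87 ± 0.138% of TPM in resistant tumors, 2.28 ± 0.191% in parental tumors, 2.54 ± 0.139% in resistant cultures and 2.85 ± 0.152% in parental cultures (SD, n = 12, 13, 5 and 2). The 13 mitochondrially encoded members held 10.01 ± 2.68%, 7.19 ± 2.01%, 6.35 ± 1.05% and 5.49 ± 0.527% in the same groups. Of the 13, 6 were above 0 in at most 1 library, and these sums rest on the other 7. The mean nuclear share was thus lowest, and the mean mitochondrial share highest, in resistant tumors. Resistant tumors ranged from 1.69 to 2.23% and parental tumors from 1.82 to 2.64% for the nuclear members, which overlap. For the mitochondrially encoded members the ranges were 7.20 to 14.4% and 4.65 to 10.6%, which overlap too. Since TPM is a share, more mitochondrial RNA lowers every nuclear value. With mitochondrial genes left out of the total, the nuclear members still held 2.08 ± 0.158% in resistant tumors and 2.46 ± 0.210% in parental tumors (SD, n = 12 and 13). These totals are descriptions with no test.

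**Figure D1:**
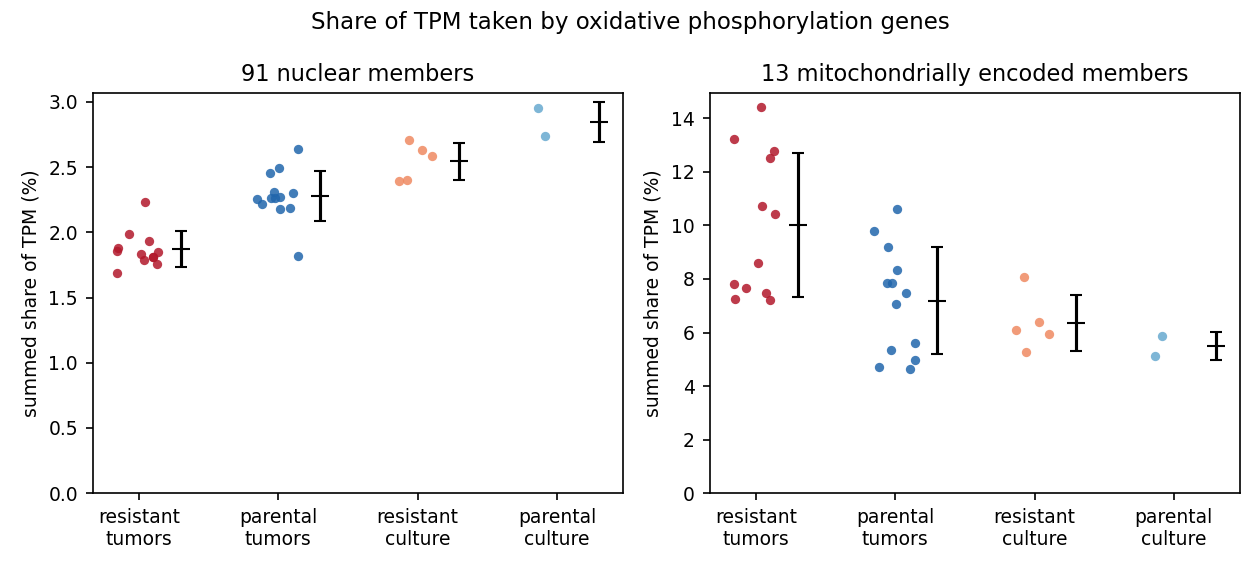
Summed share of TPM (%) of the 91 nuclear members (left) and the 13 mitochondrially encoded members (right) in resistant tumors, parental tumors, resistant culture and parental culture. Each point is a library, and the bar gives the mean ± SD. Only 7 of the 13 mitochondrially encoded members were measured. The nuclear share is lowest in resistant tumors (mean 1.87%) and the mitochondrial share is highest there (mean 10.01%).

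By complex, the summed level of the 36 complex I subunits was 4317 to 5512 TPM in resistant tumors and 5264 to 6828 TPM in parental tumors. The 16 complex IV genes summed to 4112 to 5886 TPM in resistant tumors and 5032 to 7408 TPM in parental tumors. For ATP synthase (15 genes) the sums were 5252 to 7362 TPM in resistant tumors and 4851 to 8441 TPM in parental tumors. Every one of these ranges overlaps between the lines. The nuclear member of highest mean level was Atp5b, the catalytic beta subunit of ATP synthase, in all 4 groups, with 1858 ± 239 TPM in resistant tumors, 2109.6 ± 308 TPM in parental tumors, 2479 ± 217 TPM in resistant cultures and 2796 ± 31.2 TPM in parental cultures (SD).

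The first comparison asked how the untreated resistant tumors differ from parental tumors. In these tumors 35 nuclear members were lower and 5 higher than in parental tumors, of 87 tested, and 2 of the 7 measured mitochondrially encoded members were higher. The called genes have an adjusted p under 0.05 in limma's two-sided moderated test on log2(TPM + 1), adjusted by Benjamini-Hochberg over all genes tested. Among all 12095 genes tested, 13.9% were called lower and 16.3% higher. The majority among these calls turned with the scaling: 1678 genes were lower and 1969 higher, against 1911 lower and 1629 higher with median-of-ratios scaling, where 40 nuclear members were lower and 4 higher. Nuclear members were thus lower in a share of 40.2%, and higher in 5.75%. The median log2 fold change was -0.22 over the 87 nuclear members and 0.04 over all genes tested. The 4 nuclear members too low to be tested were Cox6b2, Cox7b2, Cox8b and Cox8c, with at most 1.16, 0.522, 9.37 and 0.656 TPM in any resistant tumor and at most 1.91, 2.28, 2.60 and 0 TPM in any parental tumor.

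**Figure D2:**
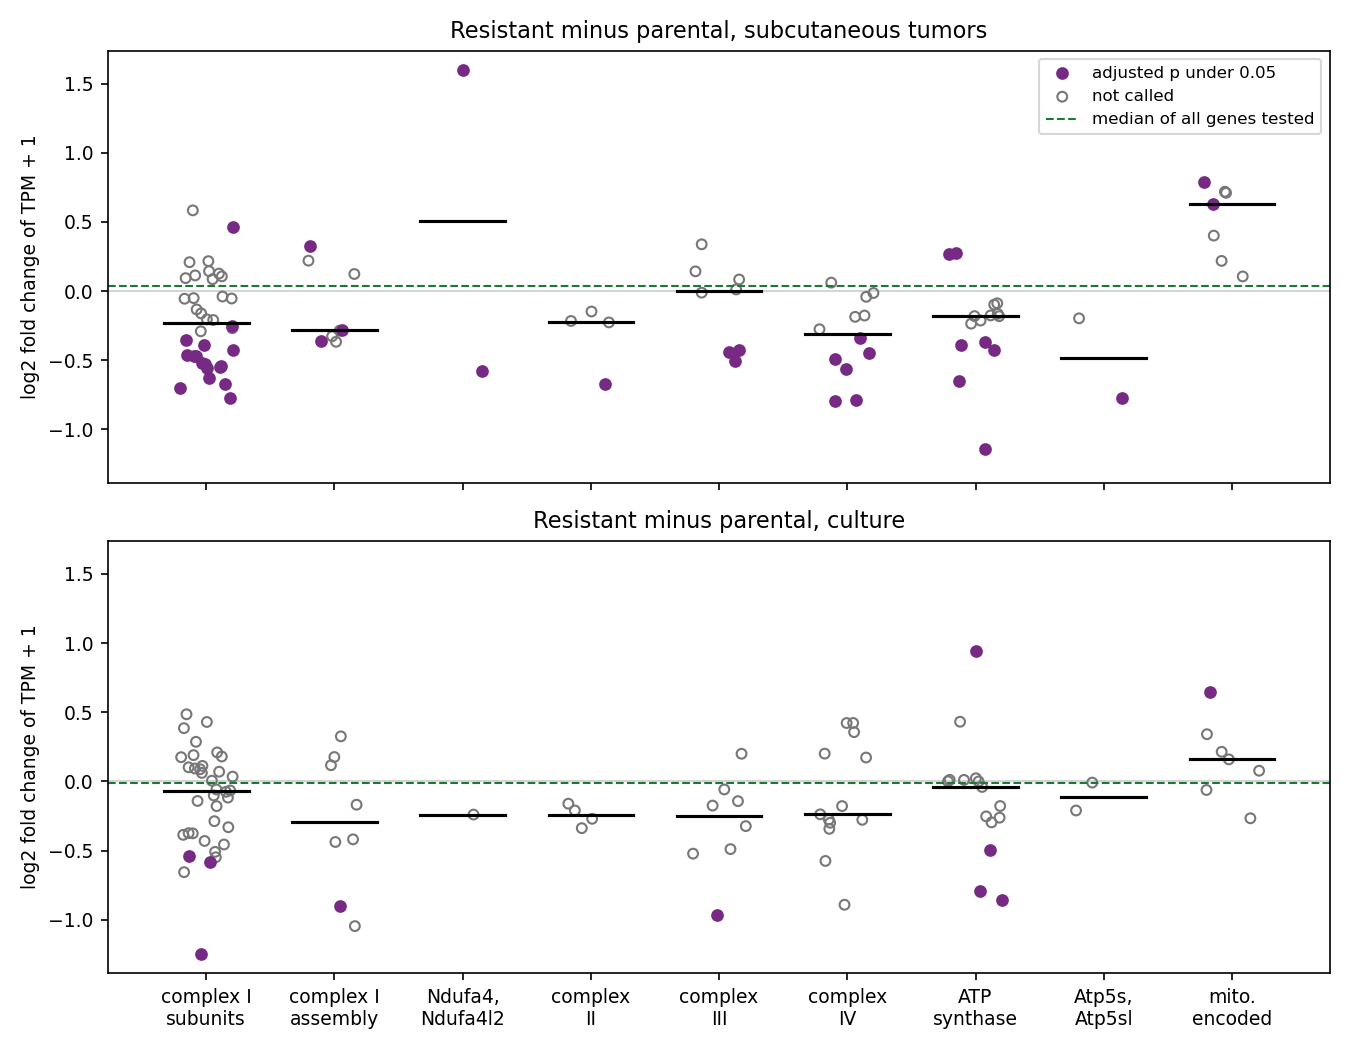
Log2 fold change of TPM + 1, resistant minus parental, of each tested member by complex, in tumors (top) and in culture (bottom). Filled points passed the adjusted threshold, open points did not, black lines are medians of each class and the dashed line is the median of all genes tested. In tumors most called nuclear members lie below 0 and the mitochondrially encoded members lie above it.

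Complex I takes electrons from NADH. Of its 36 nuclear subunits, 16 fell and 1 rose in resistant tumors. Ndufv3, an accessory subunit of the NADH-binding arm, had 171 to 272 TPM (median 207) in resistant tumors and 276 to 474 TPM (median 362) in parental tumors. Every resistant tumor lay below every parental tumor, and the log2 fold change was -0.77 ± 0.09 (SE, adjusted p = 6.90e-07). Ndufs6, a small subunit of the same arm, had 81.3 to 119 TPM (median 104) in resistant tumors and 123 to 184 TPM (median 152) in parental tumors. Here too the groups did not overlap, with a log2 fold change of -0.56 ± 0.08 (SE, adjusted p = 1.24e-05). Other falls included Ndufa7 (-0.70 on the log2 scale), Ndufa3 (-0.67), Ndufb7 (-0.55) and Ndufa8 (-0.54), all accessory subunits. The exception was Ndufs5, an accessory subunit, which had 30.1 to 75.4 TPM (median 52.8) in resistant tumors and 18.7 to 48.8 TPM (median 35.6) in parental tumors and a log2 fold change of 0.47 ± 0.14 (SE, adjusted p = 0.0141). The core subunits Ndufv1, Ndufv2 and Ndufs1, which carry the first electron steps, were not called, with log2 fold changes of 0.11, 0.09 and 0.13. Ndufb6, an accessory subunit, varied most within groups among these subunits, with 31.0 to 85.5 TPM (median 63.1) in resistant tumors and 0.866 to 80.9 TPM (median 60.1) in parental tumors, and was not called (0.58 ± 0.40, adjusted p = 0.282).

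Of the 8 complex I assembly factors, which help build the complex without staying in it, 2 fell and 1 rose. Ndufaf4 had 15.9 to 23.4 TPM (median 20.95) in resistant tumors and 12.9 to 19.6 TPM (median 15.6) in parental tumors, a log2 fold change of 0.32 ± 0.08 (SE, adjusted p = 0.00313). It was above the parental mean in 11 of 12 resistant tumors. Ndufaf5 was lower, by a log2 fold change of -0.28 ± 0.09 (SE, adjusted p = 0.0227), as was Ndufaf8 (-0.36). Atp5sl, which the rule takes up by its old symbol and which is known in human cells as an assembly factor of complex I's membrane arm, had 2.83 to 7.79 TPM (median 4.69) in resistant tumors and 6.55 to 12.4 TPM (median 9.16) in parental tumors. It fell by a log2 fold change of -0.77 ± 0.14 (SE, adjusted p = 1.14e-04), with all 12 resistant tumors below the parental mean.

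Complex II feeds electrons from succinate and is encoded in the nucleus alone. Sdhb, its iron-sulfur subunit, had 50.8 to 109 TPM (median 73.2) in resistant tumors and 86.2 to 185 TPM (median 112) in parental tumors, a log2 fold change of -0.67 ± 0.13 (SE, adjusted p = 2.75e-04). The other subunits were not called. Sdha, the flavoprotein, had a log2 fold change of -0.15 (adjusted p = 0.255), and the membrane anchors Sdhc and Sdhd had -0.22 (adjusted p = 0.0502) and -0.23 (adjusted p = 0.159). Sdhc lay at the threshold and was called lower with median-of-ratios scaling (-0.26, adjusted p = 0.0210). Sdhd was called lower with the GC index, which sets GC-rich against GC-poor genes in a library, as a covariate (-0.41, adjusted p = 0.00503). Sdhb was thus the subunit of complex II that passed the test, at a level near that of Sdhd and well under that of Sdha (497 ± 91.7 TPM in resistant tumors and 547 ± 76.1 TPM in parental tumors, SD).

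In complex III, which passes electrons to cytochrome c, 3 of 8 members fell. All 3 are small subunits: Uqcr10 (-0.44 ± 0.08, adjusted p = 8.27e-05), Uqcr11 (-0.50 ± 0.12, adjusted p = 0.00307) and Uqcrq (-0.42 ± 0.11, adjusted p = 0.00597), as log2 fold change ± SE. Uqcr10 had 276 to 404 TPM (median 339) in resistant tumors and 355 to 559.6 TPM (median 467) in parental tumors. The 2 core proteins Uqcrc1 and Uqcrc2 and the Rieske iron-sulfur protein Uqcrfs1 were not called, with log2 fold changes of 0.01, 0.34 and 0.14.

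Complex IV, cytochrome c oxidase, hands electrons to oxygen. Of its 12 tested members, 6 fell, and none rose in limma's test, at an unadjusted p under 0.05 either. Cox6a1, the form of its subunit found in most tissues, had 516 to 859 TPM (median 639.7) in resistant tumors and 929 to 1337 TPM (median 1079) in parental tumors. No resistant tumor reached the level of the lowest parental tumor, and the log2 fold change was -0.79 ± 0.09 (SE, adjusted p = 1.42e-07). Cox6b1, which links the monomers of the dimer, had 282 to 604 TPM (median 424) in resistant tumors and 511 to 876 TPM (median 754) in parental tumors. Its groups overlapped only by the highest resistant tumor, with a log2 fold change of -0.79 ± 0.10 (SE, adjusted p = 1.01e-06). Cox5b (-0.56), Cox7a2 (-0.49), Cox5a (-0.45) and Cox6c (-0.34) fell as well. Cox8a, at 1013 ± 96.7 TPM in resistant tumors and 1025 ± 119 TPM in parental tumors (SD), had a log2 fold change of -0.01 and was not called. Neither were Cox7b (-0.19, adjusted p = 0.0547), the common partner of Cox7b2, and Cox7a2l (0.06, adjusted p = 0.789), which helps complexes III and IV associate.

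ATP synthase makes ATP from the proton gradient. Of its 15 nuclear members, 5 fell and 2 rose. Subunit c, which forms the rotating ring, is encoded by Atp5g1, Atp5g2 and Atp5g3, which give the same mature protein. Atp5g1 had 68.6 to 190.0 TPM (median 109) in resistant tumors and 148 to 319 TPM (median 233) in parental tumors, a log2 fold change of -1.14 ± 0.14 (SE, adjusted p = 7.33e-07) and the largest fall of all tested members. All 12 resistant tumors lay below the parental mean, and the highest resistant tumor overlapped the parental range. Atp5g3 fell less (-0.42 ± 0.11, adjusted p = 0.00450), and Atp5g2, the lowest of them, was not called (-0.18 ± 0.11, adjusted p = 0.205). The summed level of the 3 genes was 284 to 572 TPM in resistant tumors and 383 to 742 TPM in parental tumors. Atp5g1 made up 28.1 ± 3.10% of that sum in resistant tumors and 39.9 ± 3.03% in parental tumors (SD, n = 12 and 13). Subunits of the membrane part, Atp5l (-0.65) and Atp5j2 (-0.39), and Atp5j of the stalk (-0.37) fell too.

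The 2 rises in ATP synthase were small. Atp5a1, the alpha subunit of the catalytic head, had 431 to 751 TPM (median 588) in resistant tumors and 315 to 554 TPM (median 484) in parental tumors, a log2 fold change of 0.28 ± 0.10 (SE, adjusted p = 0.0335). Atp5f1, subunit b of the peripheral stalk, had 389.7 to 572 TPM (median 487) in resistant tumors and 333 to 525 TPM (median 406) in parental tumors, a log2 fold change of 0.27 ± 0.08 (SE, adjusted p = 0.0101). The call of Atp5a1 was lost without any 1 of resistant tumors 1, 2, 3 and 12 or parental tumors 2, 8 and 13, with log2 fold changes of 0.23 to 0.27 and adjusted p of 0.0526 to 0.0603. The beta subunit Atp5b, partner of Atp5a1 in the head, had a log2 fold change of -0.18 (adjusted p = 0.105).

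Ndufa4 and Ndufa4l2 moved in opposite directions. Ndufa4, first counted in complex I and now placed in complex IV, had 176 to 299 TPM (median 229) in resistant tumors and 286 to 415 TPM (median 345) in parental tumors, a log2 fold change of -0.58 ± 0.09 (SE, adjusted p = 3.09e-05). Ndufa4l2, its paralog, is induced by HIF-1 at low oxygen and is known to lower complex I activity. It had 34.6 to 141 TPM (median 75.5) in resistant tumors and 6.68 to 54.8 TPM (median 22.7) in parental tumors, the largest rise of all tested members, with a log2 fold change of 1.60 ± 0.23 (SE, adjusted p = 9.96e-06). All 12 resistant tumors exceeded the parental mean, while the ranges overlapped. Ndufa4l2 made up 24.2 ± 7.24% of the pair in resistant tumors and 6.71 ± 2.81% in parental tumors (SD, n = 12 and 13). The 5 endothelial markers summed to 49.4 to 104 TPM in resistant tumors and 61.6 to 123 TPM in parental tumors. Of these 5, limma called 0 (1 was higher at an unadjusted p under 0.05). Markers of other cells of the vessel wall were not in the lists, and the part of host cells in the rise of Ndufa4l2 was not tested.

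**Figure D3:**
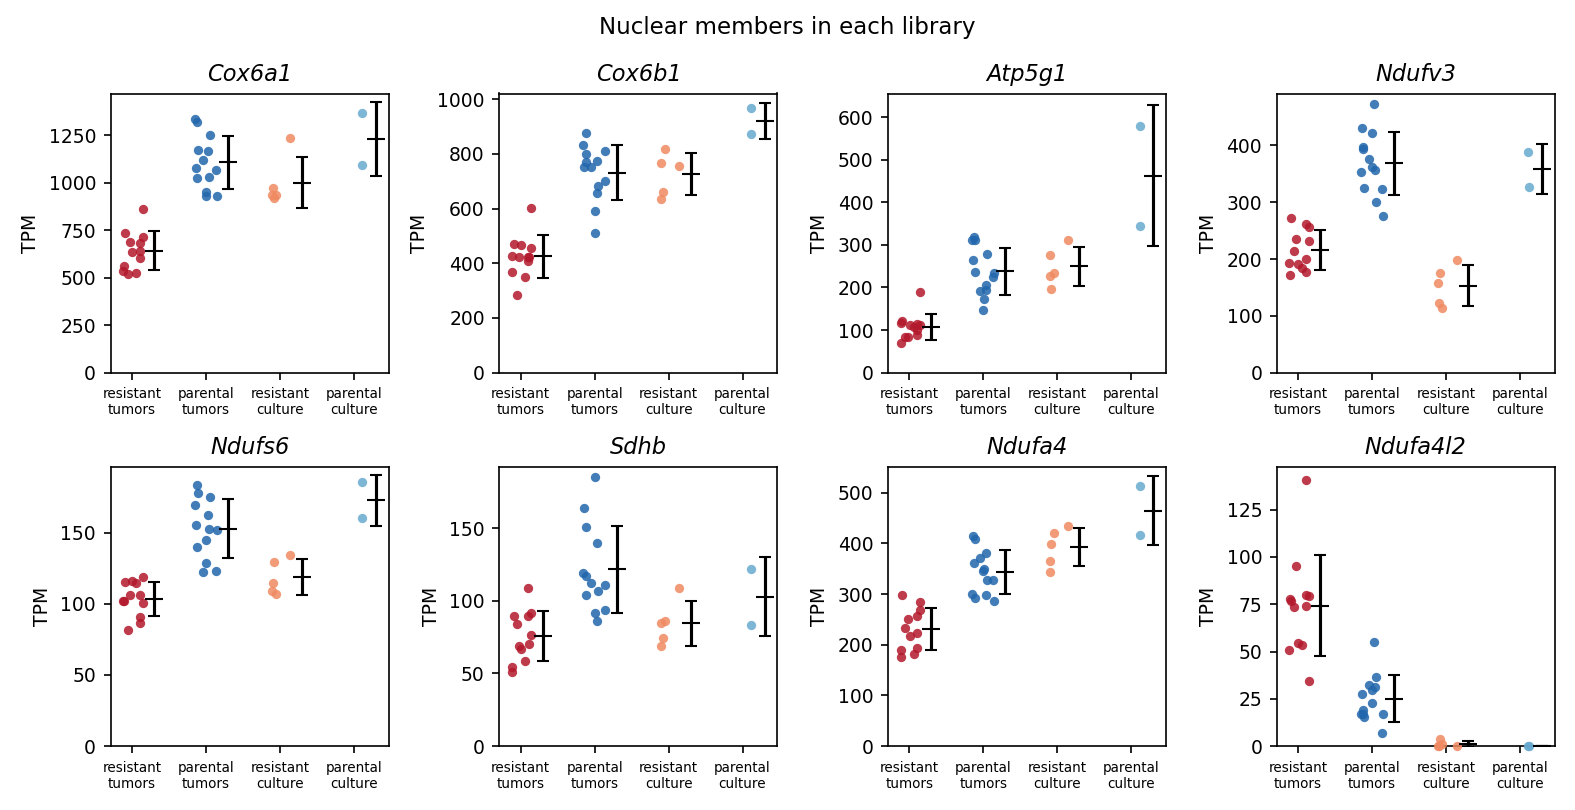
TPM of 8 nuclear members in every library, by group. Points are libraries and bars are mean ± SD. Cox6a1, Ndufv3 and Ndufs6 show no overlap between resistant and parental tumors, and Ndufa4l2 is at or near 0 in every culture.

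Host cell markers differed as well. Of the 8 macrophage markers, 6 were lower and 1 higher in resistant tumors, and of 7 muscle markers tested, 3 were higher. With the level of Ptprc, a gene of all leukocytes, as a covariate, 34 of the 35 nuclear members that fell stayed called, and 39 were called in all. Calls rose among all 12095 genes too, with 2320 lower in that fit against 1678 without the covariate. Ptprc itself was not called between these tumors in limma's test (-0.35, adjusted p = 0.125). No macrophage marker was used as a covariate, so the part of macrophages was not tested. With the level of the muscle markers as a covariate, all 35 stayed called, of 37 in all. With the GC index, 31 of the 35 stayed called, of 40 in all. When the 4 parental tumors with the highest index were left out, 32 of the 35 stayed. This index sets the median level of GC-rich genes in a library against that of GC-poor genes, as a log2 difference. Among the 5 rises, Ndufa4l2 and Ndufaf4 stayed called under all of these. Ndufs5 (0.29, adjusted p = 0.114) and Atp5f1 (0.18, adjusted p = 0.0695) lost their call with the GC index. So did the lower Ndufaf5 (-0.21, adjusted p = 0.0935), Ndufaf8, Ndufa11 and Ndufa13. Ndufs5 also lost its call without the 4 tumors (0.36, adjusted p = 0.0503), as did Ndufaf5, Ndufaf8 and Ndufa13. The call of Ndufaf8 was lost with no filter and with nuclear genes rescaled as well. Atp5a1 lost its call with Ptprc (adjusted p = 0.0538), with the muscle markers (adjusted p = 0.0628) and without the 4 tumors (adjusted p = 0.104), and also with median-of-ratios scaling (adjusted p = 0.0726) and with no filter (adjusted p = 0.0548).

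The start regions of members that fell in resistant tumors and of members that were not called held the NRF1 letters in like shares, 8 of 29 (27.6%) and 12 of 40 (30%). For the YY1 letters the shares were 6 of 29 (20.7%) and 2 of 40 (5%), with no test.

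The mitochondrially encoded members cover complexes I, III, IV and ATP synthase. Only 7 of the 13 were measured: mt-Nd1, mt-Nd2, mt-Nd4, mt-Nd5 and mt-Nd6 of complex I, mt-Cytb of complex III and mt-Co1 of complex IV. mt-Co2, mt-Atp8, mt-Atp6, mt-Co3 and mt-Nd4l were listed at 0 in all 32 libraries, and mt-Nd3 in all but 1 resistant culture (1.75 TPM). These 6 genes lie next to each other on mitochondrial DNA, between mt-Co1 and mt-Nd4. Their 0 values are given as listed and say nothing of expression. The mitochondrial part of ATP synthase is therefore not covered here.

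**Figure D4:**
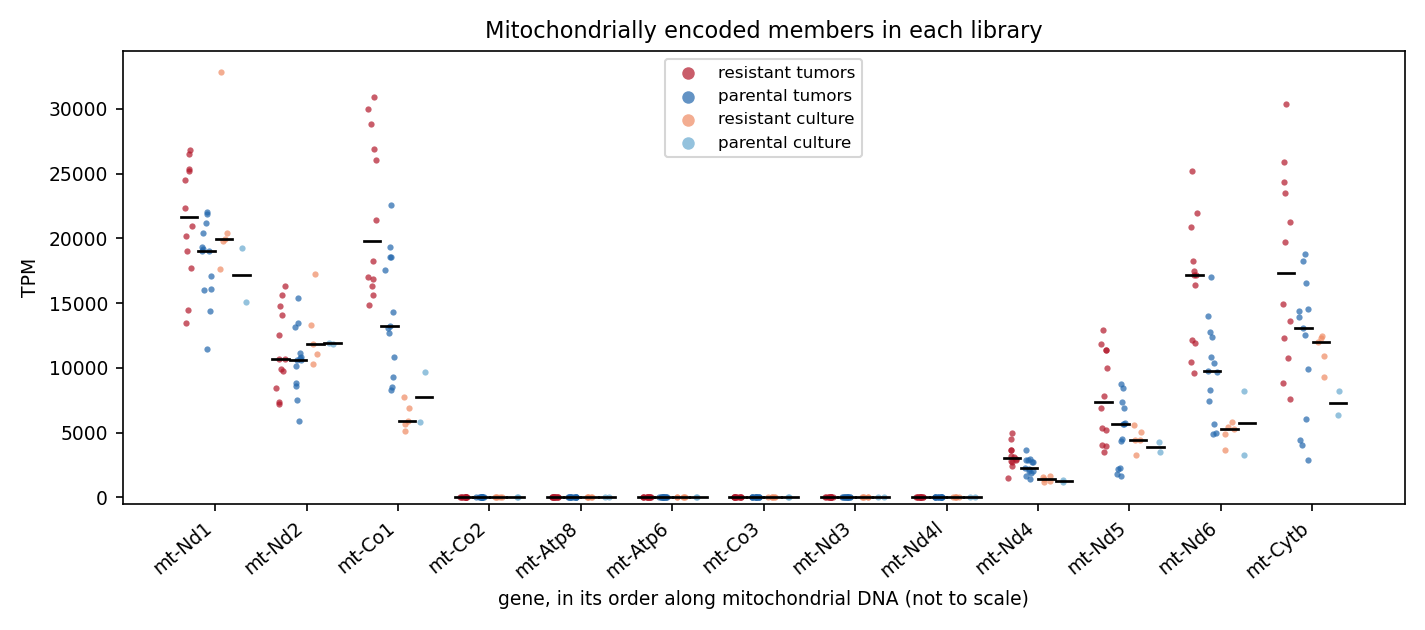
TPM of the 13 mitochondrially encoded members in every library, in the order of the genes along mitochondrial DNA. Points are libraries, colors are the 4 groups and black lines are medians. The 6 genes from mt-Co2 to mt-Nd4l are listed at 0, apart from 1.75 TPM of mt-Nd3 in 1 resistant culture, and resistant tumors have the highest medians for mt-Co1, mt-Nd6 and mt-Cytb.

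In resistant tumors mt-Co1, the catalytic subunit of complex IV, had 14840.2 to 30927 TPM (median 19825), against 8261 to 22545 TPM (median 13202) in parental tumors. All 12 resistant tumors lay above the parental mean, and the log2 fold change was 0.63 ± 0.17 (SE, adjusted p = 0.00577). mt-Nd6, the complex I subunit read from the other strand, had 9607 to 25198 TPM (median 17159) in resistant tumors and 4920.0 to 17002 TPM (median 9789.5) in parental tumors. It was above the parental mean in 11 of 12 resistant tumors, with a log2 fold change of 0.79 ± 0.19 (SE, adjusted p = 0.00266). mt-Nd6 overlaps the end of mt-Nd5 on the opposite strand, and whether strand was used in counting is not given in the sources used here. mt-Cytb had 7563 to 30365 TPM (median 17324) in resistant tumors and 2917 to 18789 TPM (median 13098) in parental tumors, a log2 fold change of 0.72 ± 0.29 (SE, adjusted p = 0.0648), which missed the threshold. So did mt-Nd5 (0.71 ± 0.29, adjusted p = 0.0633) and mt-Nd4 (0.40 ± 0.16, adjusted p = 0.0567). The smallest differences were in mt-Nd1 (0.22 ± 0.12, adjusted p = 0.173) and mt-Nd2 (0.11 ± 0.15, adjusted p = 0.620). The median over the 7 was 0.63.

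The size of the difference was unequal among these genes. mt-Nd1 and mt-Nd2 together held 3.28 ± 0.755% of TPM in resistant tumors and 2.88 ± 0.536% in parental tumors, while the other 5 measured genes held 6.73 ± 2.12% in resistant tumors and 4.31 ± 1.60% in parental tumors (SD, n = 12 and 13). The ratio of mt-Co1 to mt-Nd1 within a library was 0.615 to 1.35 in resistant tumors and 0.434 to 1.15 in parental tumors. In culture the same ratio was 0.237 to 0.390 in resistant cells and 0.3004 to 0.640 in parental cells.

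The mitochondrial share varied with the GC index among the tumors. The 7 measured genes have GC fractions of 0.341 (mt-Nd6) to 0.399 (mt-Co1), so they are themselves among the GC-poor genes of the index. Parental tumors 2, 3, 7 and 8 had the highest index of the series, 0.605 to 0.810, and the lowest mitochondrial shares of all tumors, 4.65 to 5.35% of TPM. The other 9 parental tumors had an index of -0.271 to 0.259 and a share of 5.60 to 10.6%. Resistant tumors had an index of -0.543 to 0.250 and a share of 7.20 to 14.4%. With the index as a covariate, the log2 fold change of mt-Co1 was 0.26 (adjusted p = 0.0852), and without those 4 tumors it was 0.40 (adjusted p = 0.0587). The median over the 7 genes was 0.12 with the index as a covariate and 0.20 without the 4 tumors, against 0.63 with neither. mt-Nd6 stayed called both ways. With Ptprc as a covariate, all 7 were called higher. That fit called 3052 of all 12095 genes higher, against 1969 without the covariate. Without 1 of resistant tumors 3, 11 or 12 the number of the 7 called was 4, and without parental tumor 10 or 12 it was 5.

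**Figure D5:**
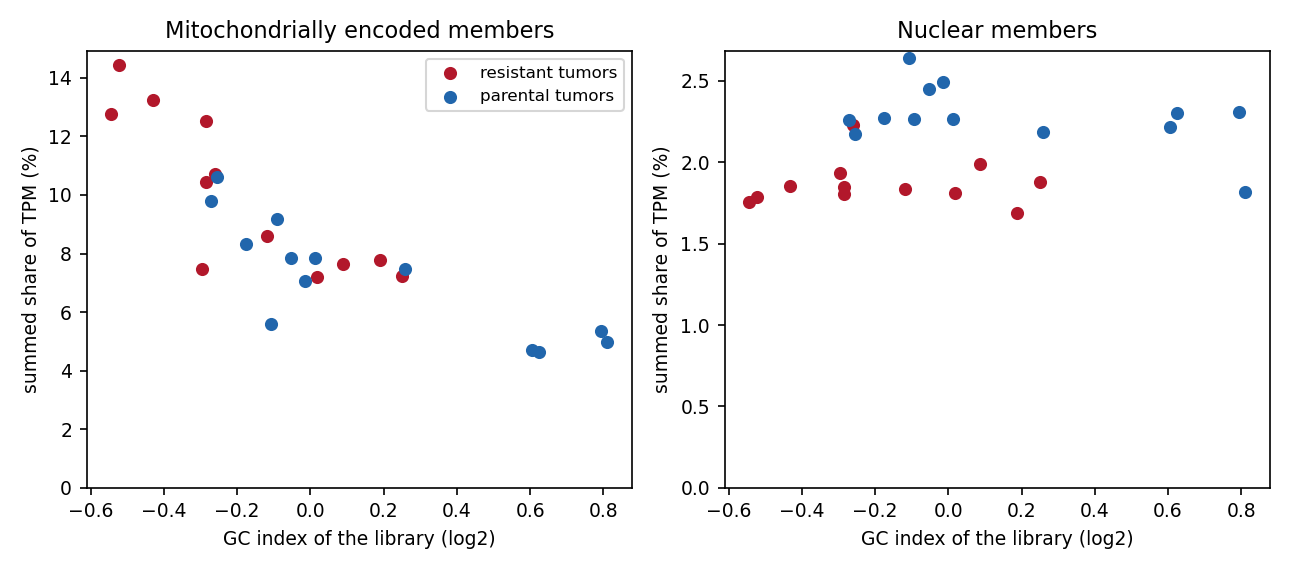
Share of TPM (%) of the mitochondrially encoded members (left) and nuclear members (right) against the GC index of the library (log2) in resistant and parental tumors. Points are tumors. The 4 parental tumors of highest index (0.605 to 0.810) have mitochondrial shares of 4.65 to 5.35%, below those of the other tumors.

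The second comparison asked whether the lines also differ as cultured cells, without host tissue. In resistant cultures 8 nuclear members were lower and 1 higher than in parental cultures, of 87 tested, and 1 of 7 mitochondrially encoded members was higher. Among all 11201 genes tested, 8.04% were called lower and 6.15% higher, so the nuclear share called lower (9.20%) was near the background. The median log2 fold change was -0.17 over the nuclear members and -0.01 over all genes tested. Without parental culture 1 the nuclear median was -0.10. The counts rest on 2 parental cultures: without parental culture 1 the numbers were 2 lower and 0 higher, and without parental culture 2 they were 3 lower and 0 higher. They were 5, 4 and 5 lower without resistant cultures 3, 4 and 5, and 3 higher without resistant culture 1.

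Ndufv3 had 176, 197, 122, 157 and 114 TPM in resistant cultures and 327 and 389 TPM in parental cultures. Its groups did not overlap, with a log2 fold change of -1.24 ± 0.22 (SE, adjusted p = 0.00661). Uqcrb, a small subunit of complex III that binds ubiquinone, had 197, 228, 279.6, 227 and 275 TPM in resistant cultures and 442 and 499 TPM in parental cultures, a log2 fold change of -0.97 ± 0.16 (SE, adjusted p = 0.00499). Ndufaf2, a complex I assembly factor, had 119, 118, 115, 109 and 113 TPM in resistant cultures and 218 and 214 TPM in parental cultures, a log2 fold change of -0.90 ± 0.11 (SE, adjusted p = 0.00140). In both genes every resistant culture lay below both parental cultures. Such separation was common with 5 against 2 libraries: 22 members lay lower and 5 higher without overlap, called or not. How many of all genes separated in this way was not counted. Ndufaf2 lost its call in 1 fit over all groups (adjusted p = 0.0617). The call of Ndufv3 was lost without either parental culture (log2 fold changes of -1.37 and -1.12, adjusted p = 0.0600 and 0.0957), and that of Uqcrb without parental culture 2 (-0.88, adjusted p = 0.0677). Atp5g1 had 197, 312, 277, 228 and 233 TPM in resistant cultures and 579 and 345 TPM in parental cultures, a log2 fold change of -0.86 ± 0.23 (SE, adjusted p = 0.0367). Atp5d (-0.79), Ndufa8 (-0.58), Ndufs6 (-0.54) and Atp5c1 (-0.50) also fell.

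Atp5a1 was higher, with 581, 839, 901, 862 and 819 TPM in resistant cultures and 448 and 376 TPM in parental cultures and a log2 fold change of 0.94 ± 0.18 (SE, adjusted p = 0.00994). The call ended without either parental culture (1.07 and 0.82, adjusted p = 0.0593 and 0.112). mt-Cytb had 11958, 9284, 10874, 12494 and 12316 TPM in resistant cultures and 6393 and 8196 TPM in parental cultures, a log2 fold change of 0.64 ± 0.17 (SE, adjusted p = 0.0380). That call was lost without any 1 of resistant cultures 3, 4 and 5 or either parental culture, with log2 fold changes of 0.47 to 0.82 and adjusted p of 0.0762 to 0.261. mt-Co1 and mt-Nd6, higher in resistant tumors, had log2 fold changes of -0.27 (adjusted p = 0.478) and -0.06 (adjusted p = 0.923) between the cultures.

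Atp5g1, Ndufa8, Ndufs6 and Ndufv3 were lower in the resistant line in both settings. They are 11.4% of the 35 nuclear members lower in tumors, where 9.20% of all nuclear members tested were lower in culture. They are 50% of the 8 lower in culture, where 40.2% of all nuclear members tested were lower in tumors. Both shares are near those of the nuclear members at large. Atp5a1 was higher in both. Cox6a1, which separated the tumors without overlap, had 921, 1236, 970.3, 933 and 933 TPM in resistant cultures and 1366 and 1091 TPM in parental cultures. There the groups overlapped, and the log2 fold change was -0.30 ± 0.16 (SE, adjusted p = 0.239). Of the 13 complex IV genes tested in culture, limma called 0, with 2 higher and 1 lower at an unadjusted p under 0.05. Ndufa4l2 was listed at 0 in both parental cultures and had 3.57, 0, 0.284, 0 and 0.835 TPM in the resistant cultures, so it was too low to be tested there.

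The difference between the line effects was tested itself, as an interaction term over all 32 libraries in which the effect in culture is subtracted from the effect in tumors. Of 90 nuclear members tested, 1 was higher and 2 lower. Among all 15061 genes, 2.4% were higher and 1.61% lower. For the 7 mitochondrially encoded members limma called 0, with 1 higher at an unadjusted p under 0.05. Uqcrb had a difference of 0.96 ± 0.19 (SE, adjusted p = 0.00105): it was lower in resistant cultures and had 182 to 264 TPM (median 225) in resistant tumors and 178 to 273 TPM (median 227) in parental tumors. Ndufb8, an accessory subunit of complex I, had a difference of -0.90 ± 0.21 (SE, adjusted p = 0.00647), with a line difference of -0.47 in tumors and 0.43 in culture. Cox6c had a difference of -0.76 ± 0.18 (SE, adjusted p = 0.00890), with -0.34 in tumors and 0.42 in culture. All 3 calls were lost without parental culture 2, at 0.87, -0.79 and -0.52 (adjusted p = 0.0524, 0.179 and 0.443). Without resistant culture 5 or parental culture 1, 2 nuclear members were called higher.

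The third and the fourth comparison set tumors against culture within each line. In the resistant line, 41 of 88 nuclear members tested were lower and 9 higher in tumors, and 3 of 7 mitochondrially encoded members were higher. Among all 12312 genes tested there, 15.0% were lower and 35.3% higher. The median log2 fold change was -0.33 over the nuclear members and 0.18 over all genes. In the parental line, 17 of 90 nuclear members were lower and 4 higher in tumors, and 1 of 7 mitochondrially encoded members was higher, against 5.99% lower and 16.1% higher among all 14348 genes. The medians were -0.17 and 0.21, and without parental culture 2 the nuclear median was -0.28. Without parental culture 1 the parental count was 4 lower, and without parental culture 2 it was 7 lower and 2 higher. The tumors hold host RNA that cultures lack, and its part in these differences was not tested. With median-of-ratios scaling the median of all genes in the resistant line moved to 0.07 and that of the nuclear members to -0.44, and 57 nuclear members were lower and 7 higher. The share of all called genes that were higher was then 59.6%, against 70.2% as deposited.

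ATP synthase had most of its members lower in tumors in the resistant line, 12 of 15, and 7 of 15 in the parental line, with none called higher by limma, also at an unadjusted p under 0.05. Atp5d, the delta subunit of the central stalk, had 27.3 to 284 TPM (median 192) in resistant tumors and 295, 332, 428, 382 and 396 TPM in resistant cultures. The log2 fold change was -1.70 ± 0.55 (SE, adjusted p = 0.0136). Parental tumors had 44.3 to 386 TPM (median 128), against 644 and 618 TPM in parental cultures (-2.26 ± 0.70, adjusted p = 0.0266). No tumor reached any culture of its line, but the tumors of each line spread over a wide range. The parental call was lost without either parental culture (-2.23 and -2.29, adjusted p = 0.213 and 0.173) and with no filter (-2.26, adjusted p = 0.0526). Atp5g1 was lower in tumors of both lines (-1.23 ± 0.17, adjusted p = 4.24e-06 in the resistant line and -0.94 ± 0.26, adjusted p = 0.0139 in the parental line). Atp5j2, subunit f, had 101 to 178 TPM (median 121) in resistant tumors and 274, 302, 276, 255 and 249 TPM in resistant cultures, a log2 fold change of -1.11 ± 0.11 (SE, adjusted p = 2.43e-08) without overlap.

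In complex III, 4 of 8 members were lower in tumors in each line. Uqcrfs1, the Rieske protein, had 13.4 to 43.5 TPM (median 24.7) in parental tumors and 54.1 and 63.0 TPM in parental cultures (-1.09 ± 0.31, adjusted p = 0.0155). Its call was lost without either parental culture (-1.20 and -0.98, adjusted p = 0.109 and 0.186). In the resistant line Uqcrfs1 was lower in tumors as well (-0.77 ± 0.16, adjusted p = 4.27e-04). Ndufb10, an accessory subunit of complex I, had 227 to 287 TPM (median 261) in parental tumors and 460.3 and 638 TPM in parental cultures, a log2 fold change of -1.08 ± 0.15 (SE, adjusted p = 2.02e-05). It was lower in resistant tumors than in resistant cultures too (-0.58 ± 0.10, adjusted p = 8.76e-05). Complex I was mixed in the resistant line, with 13 of 36 subunits lower and 5 higher, among them Ndufv1 (0.57), the subunit that binds NADH, and Ndufv3 (0.50). Sdha was lower in tumors of both lines (-0.35, adjusted p = 0.0269 in the resistant line and -0.54, adjusted p = 0.0307 in the parental line). It lost the first call without resistant culture 1, 4 or 5 (-0.34, -0.31 and -0.31, adjusted p of 0.0502, 0.0762 and 0.0813) and with nuclear genes rescaled (-0.29, adjusted p = 0.0613), and the second without either parental culture (-0.52 and -0.56, adjusted p = 0.226 and 0.178).

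Among the mitochondrially encoded genes, mt-Co1 had 14840.2 to 30927 TPM (median 19825) in resistant tumors and 7779, 5139, 5684, 6885 and 5896 TPM in resistant cultures. No culture reached any tumor, and the log2 fold change was 1.77 ± 0.18 (SE, adjusted p = 8.18e-08). mt-Nd6 (1.68 ± 0.19, adjusted p = 4.05e-07) and mt-Nd4 (1.12 ± 0.19, adjusted p = 6.18e-05) were higher in resistant tumors as well. mt-Nd1 (-0.05, adjusted p = 0.841) and mt-Nd2 (-0.19, adjusted p = 0.433) were not called. Without resistant tumor 12, 5 of the 7 were called. In the parental line mt-Nd4 was higher in tumors (0.87 ± 0.27, adjusted p = 0.0264), a call lost without either parental culture (0.79 and 0.95, adjusted p = 0.256 and 0.139) and with no filter (adjusted p = 0.0558). mt-Co1 (0.87 ± 0.33, adjusted p = 0.0698) and mt-Nd6 (0.83 ± 0.41, adjusted p = 0.155) were not called there. Without parental tumor 2, 7 or 8, mt-Co1 was called as well (0.92 to 0.93, adjusted p = 0.0443 to 0.0472).

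Isoforms restricted to certain tissues or conditions were among the members higher in tumors than in culture. Ndufa4l2 was called higher in tumors of both lines. Like Cox6a2 and Cox8b, it passed the filter on low values through the tumors alone, so these calls describe where the gene was detected and support nothing further. In the resistant line its log2 fold change was 5.47 ± 0.30 (SE, adjusted p = 3.40e-12), and in the parental line both cultures were listed at 0, so no fold is given (adjusted p = 8.09e-07). Cox6a2, the heart and muscle form of Cox6a1, had 6.61 to 23.9 TPM (median 14.4) in resistant tumors and 2.03, 0.308, 4.74, 0.846 and 0.332 TPM in resistant cultures, a log2 fold change of 2.71 ± 0.31 (SE, adjusted p = 2.88e-07). In the parental line it had 7.37 to 32.1 TPM (median 14.3) in tumors and 0.246 and 4.89 TPM in cultures (2.71 ± 0.47, adjusted p = 3.54e-04), and lost the call without parental culture 1 (1.59, adjusted p = 0.0822). Cox7a1, the muscle form of Cox7a2, was higher in resistant tumors than in resistant cultures (1.12 ± 0.24, adjusted p = 7.07e-04). Cox8b, a further muscle form, was listed at 0 in every culture and reached 9.37 TPM in resistant tumors and 2.60 TPM in parental tumors.

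All these muscle forms stayed low. Cox6a2 was 2.22 ± 0.780% of the summed Cox6a1 and Cox6a2 level in resistant tumors and 1.64 ± 0.790% in parental tumors, and Cox7a1 was 4.69 ± 1.83% of Cox7a1 and Cox7a2 in resistant tumors and 3.39 ± 1.11% in parental tumors (SD, n = 12 and 13). Of the muscle markers, 6 of 7 tested were higher in resistant tumors than in resistant cultures, against 35.3% of all genes tested. In the parental line 2 of 10 were higher in tumors, near the 16.1% of all genes tested. Markers at or near 0 in culture passed the filter on low values through the tumors alone. Myh2 and Tnnt3 were listed at 0 in every culture, while Mylpf was detected in cultures of both lines. Their part in the isoforms' difference was not tested. Between the tumors of the lines, Cox6a2 (-0.28, adjusted p = 0.314) and Cox7a1 (-0.04, adjusted p = 0.902) were not called, while the muscle markers Ckm, Atp2a1 and Myh4 were higher in resistant tumors.

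Genes that work with the members were read from lists. Of 46 assembly factors of the respiratory chain, 8 of which are members, 9 were lower and 2 higher in resistant than in parental tumors, with a median log2 fold change of -0.07. Cox17, the copper chaperone of complex IV, had 174 ± 38.7 TPM in resistant tumors and 326 ± 54.0 TPM in parental tumors (-0.92, adjusted p = 1.18e-06). Coa3, which helps the mt-Co1 protein into complex IV, had 117 ± 28.5 TPM in resistant tumors and 210.2 ± 37.5 TPM in parental tumors (-0.86, adjusted p = 6.30e-06). Cox10, which makes the heme precursor of complex IV, fell too (-0.38, adjusted p = 9.50e-04). Of 78 mitochondrial ribosomal proteins, which translate the mitochondrial messages, 20 were lower and 3 higher, with a median of -0.15. Mrpl33, of the large subunit, fell (-1.23, adjusted p = 1.63e-08).

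Of all genes tested in this comparison, 13.9% were lower and 16.3% higher, as the background for these lists. Of 16 genes of the TCA cycle, which supplies NADH and succinate, 2 were lower and 2 higher, with Idh3b at -0.46 and the pyruvate dehydrogenase subunit Pdha1 at 0.41. Of 15 genes of mitochondrial DNA upkeep and transcription, 2 were lower and 1 higher, among the first the RNA polymerase Polrmt (-0.37). Of 8 tested nuclear regulators, Gabpa, the DNA-binding part of GABP, was higher (0.84, adjusted p = 0.00275), Ppard was higher (0.44) and Nfe2l2, the oxidative stress regulator, was lower (-0.53, adjusted p = 2.10e-04). Of 16 genes for cytochrome c and coenzyme Q, 2 were lower and 1 higher. Cyct, the testis form of cytochrome c, had 0 to 0.999 TPM (median 0) in resistant tumors and 4.15 to 36.2 TPM (median 16.4) in parental tumors, without overlap, and it passed the filter through the parental tumors alone (-3.70, adjusted p = 3.50e-11). It had 0 to 12.8 TPM in resistant cultures and 98.4 and 112 TPM in parental cultures. In tumors against culture of the resistant line, 45 of 78 mitochondrial ribosomal proteins were lower and 1 higher. Among all 12312 genes tested in that comparison, 15.0% were lower and 35.3% higher.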

How the data were processed

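RNA of 12 MC38-resistant and 13 MC38 parental tumors and of 5 and 2 cultures was extracted with Qiagen kits and DNase and made into KAPA RNA HyperPrep libraries, per the labels. The authors deposited 1 table of TPM by gene symbol, in which every library has the same sum. STAR and the human build GRCh38 appear, per the submitters' processing notes, in roles not stated, although the symbols are mouse symbols. Quantifier, annotation and strand setting are not given in the sources used here, and neither is how reads shared with processed pseudogenes were divided, which are many for these genes. The values are estimates, so depth is unknown and no counting interval is given.

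Groups came from the labelled line and setting. Replicates were numbered in order of deposition, and no label pairs them. Members, gene lists and named genes were chosen with earlier results of these data known. For each comparison limma 3.58.1 (R 4.3.3) was run on the libraries of that comparison, with trended empirical Bayes and two-sided tests, on log2(TPM + 1), so fold changes of low genes are understated. The filter kept genes at 1 TPM or more in a number of libraries not under the smaller group's size, and p-values were adjusted by Benjamini-Hochberg over all genes tested, at a threshold of 0.05. Fold changes have resistant over parental or tumor over culture. The fits were tested on simulated data. The rule for naming genes took, among called nuclear members averaging 5 TPM or more in the higher group, the 5 top rises and 5 top falls in tumors and 3 of each elsewhere, then the mitochondrially encoded members, the Sdh subunits, isoform pairs, and the lowest adjusted p per complex and direction. For each related list up to 3 genes of lowest adjusted p in tumors were named. Other members mentioned were chosen after their values were seen, and 1 result is not reported here.

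The GC index took 2476 genes of GC fraction over 0.55 and 665 under 0.42, each set against its tumor mean, from GENCODE transcripts for 98.6% of genes with a tumor mean of at least 5 TPM. The settings also tried were no filter, a filter at 5 TPM, a pseudocount of 0.1, median-of-ratios scaling, nuclear genes rescaled without mitochondrial ones, 1 fit over all groups, covariates for Ptprc, GC index and muscle markers, and leaving out libraries. Summaries and plots were made in Python 3.11.15 (numpy 2.4.6, pandas 2.3.3, matplotlib 3.10.9).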

Additional observations from a re-analysis of the deposited data

Results flagged for a closer look

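Among 42 members tested for a library far from the others of its group, in the 5 resistant cultures, 8 had one, and chance alone would single out about 1 in 20. In resistant culture 1 these were Ndufa4l2 at 3.57 TPM and mt-Nd1 at 32838 TPM, above the other 4, and Atp5a1 at 581 TPM, below them. In resistant culture 2 they were Cox6a1 at 1236 TPM, mt-Nd3 at 1.75 TPM and Cox6b2 at 1.14 TPM, above the other 4, and Cox8a at 1147 TPM, below them. In resistant culture 4 it was Cox7a1 at 21.1 TPM, above the other 4. For mt-Nd3 and Cox6b2 the other 4 cultures were listed at 0. Groups of more than 10 or fewer than 4 libraries were not tested this way.

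The line difference itself differed between tumors and culture for 3 of 90 nuclear members in limma's interaction test. Of these members 1.11% were higher and 2.22% lower, near the 2.4% and 1.61% of all 15061 genes tested. The difference was -0.76 for Cox6c and -0.90 for Ndufb8 and 0.96 for Uqcrb on the log2 scale, tumors minus culture. None of the 3 calls held without parental culture 2, 1 of only 2 parental cultures.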

How the results depend on the processing

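No paired analysis was possible because the labels give no replicate numbers shared between groups. No called value of a named gene changed sign under any alternative tried. For resistant against parental tumors, 35 nuclear members lower became 33 to 40 under the other settings and 33 to 39 when 1 library was left out. The 5 nuclear members higher became 9 with Ptprc as a covariate, and 4 to 5 when 1 library was left out. The 2 mitochondrially encoded members higher became 5 in 1 fit over all groups, 7 with Ptprc, and 1 both with the GC index and without the 4 parental tumors of highest index. They were 2 to 5 when 1 library was left out. Of 303 recomputed values for 31 named genes in this comparison, 271 kept their side of the threshold, 12 lost the call and 20 gained one. For the cultures, leaving out 1 library gave 0 to 3 nuclear members higher, 2 to 10 lower and 0 to 1 mitochondrially encoded member higher, and that 1 became 0 with no filter and 0 in 1 fit over all groups. For resistant tumors against resistant culture the ranges were 7 to 9 higher, 38 to 46 lower and 3 to 5 mitochondrially encoded members higher when 1 library was left out, and 57 were lower with median-of-ratios scaling. For parental tumors against parental culture they were 2 to 6, 4 to 18 and 0 to 2, and the 4 higher nuclear members became 2 with median-of-ratios scaling and 7 in 1 fit over all groups, while the 1 mitochondrially encoded member became 0 with no filter and 2 in that fit. For the difference of line effects the ranges were 0 to 2 higher, 0 to 3 lower and 0 to 0. With 1 parental culture left, its spread is assumed to be that of the other group. The cause of these shifts was not tested. Depth is unknown, and the 2 parental cultures limit every comparison that uses them.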

Other observations

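Per-library values outside the comparisons were as follows. Ppargc1a, the coactivator of mitochondrial gene programs, stayed under 0.2 TPM in every tumor, with at most 0.177 TPM in resistant tumors and 0.197 TPM in parental tumors, against at most 0.183 TPM in resistant cultures and 0.654 and 1.08 TPM in parental cultures. Nrf1, which encodes the NRF1 factor, had 41.2 ± 6.59 TPM in resistant tumors, 39.3 ± 13.0 TPM in parental tumors, 41.7 ± 3.60 TPM in resistant cultures and 36.9 ± 5.49 TPM in parental cultures (SD, n = 12, 13, 5 and 2). Total mitochondrially encoded TPM over total nuclear member TPM within a library was 3.85 to 8.07 in resistant tumors, 2.02 to 4.88 in parental tumors, 1.95 to 3.36 in resistant cultures and 1.73 to 2.14 in parental cultures.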
